A study of Mus musculus with 108 samples.

Results

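The genes described here are 8 transcriptional regulators of the mouse oocyte: Nobox, Figla, Sohlh1, Sohlh2, Lhx8, Taf4b, Tbpl2 and Foxo3. They were chosen by name, through the Ensembl mouse gene ID that a reference table pairs with each symbol, and are 8 of the 55573 gene rows in the deposited count files. The study compared single oocytes in which Exosc10 had been knocked out in the oocyte alone, written cKO, with single oocytes of control females. Exosc10 encodes a ribonuclease of the nuclear RNA exosome, the complex that trims and degrades RNA in the nucleus. The stages were GV (germinal vesicle, before meiosis resumes), GV3h (3 hours in culture in M2 medium) and MII (eggs dissected from the oviduct). Strain, age, the Cre driver and the genotype details of the controls are not given in the sources used here. Gene counts came from libraries of 2 kinds, each library made from 1 oocyte. The polyA libraries start from RNA captured by its poly(A) tail on oligo(dT) beads. The RiboMinus libraries, primed with random hexamers, do not require a poly(A) tail. A polyA value therefore depends on the amount of an RNA and on whether its tail is long enough to be captured, and these cannot be told apart in one library type.

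At polyA GV there were 15 cKO oocytes from 2 females and 7 control oocytes from 2 females. For polyA GV3h, 11 cKO oocytes and 8 control oocytes were sequenced, from 3 females each, and for polyA MII 15 cKO and 8 control, again from 3 females each. RiboMinus GV had 7 cKO oocytes and 8 control oocytes, from 2 females each. At RiboMinus MII there were 4 cKO oocytes from 2 females and 3 control oocytes from 1 female. Oocytes of one female are not independent, so counts were summed per female and the female was the replicate in every test, with 23 females in all. Levels are CPM, the counts of a gene per 1000000 counts of its library scaled by TMM within a library type, and each is relative to the other RNA of the same library.

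The 8 genes act at successive steps of oocyte life. SOHLH1 and SOHLH2 are basic helix-loop-helix (bHLH) proteins of the early germ line, where they act with the LIM-homeodomain protein LHX8 to start oocyte differentiation. FIGLA, another bHLH protein, switches on the zona pellucida genes of the egg coat, and the homeodomain protein NOBOX drives genes of the growing follicle such as Gdf9. TAF4B is a gonad-enriched subunit of TFIID, the general factor that recognises promoters, and TBPL2 replaces the TATA-binding protein in growing oocytes. FOXO3 is a forkhead factor that holds primordial follicles dormant until PI3K and AKT signalling removes it from the nucleus. Full-grown oocytes are largely silent in transcription, and during maturation stored mRNAs lose or gain poly(A) tail.

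Total gene counts ran from 4638718 to 8735914 per polyA oocyte and from 12319658 to 62675760 per RiboMinus oocyte. Exosc10 separated the genotypes in all 5 comparisons. Its highest level in any cKO oocyte was 8.29 CPM, and its lowest level in any control oocyte was 43.0 CPM. All 10 oocyte markers were detected in both library types, with summed levels of 17700 to 43800 CPM in polyA oocytes and 7360 to 13300 CPM in RiboMinus oocytes. The 12 granulosa and cumulus markers summed to 68.1 to 173 CPM and 69.6 to 203 CPM. Most of that came from Nr5a2 and Cyp19a1, with group means of 24.7 to 131 and 11.1 to 104 CPM, while Foxl2 reached at most 0.396 CPM and Fshr at most 4.23 CPM. The 5 theca and stroma markers summed to at most 26.3 CPM and the 4 blood markers to at most 13.8 CPM. Both maxima were in RiboMinus MII cKO, where marker levels differed from those of the controls. Theca and stroma markers summed to 6.29 to 26.3 CPM there, with 4 of 5 detected, and to 0 to 0.195 CPM in RiboMinus MII controls, with 1 of 5 detected. Granulosa and cumulus markers summed to 69.6 to 107 CPM and 152 to 171 CPM in the same groups, with Ptx3 and Tnfaip6 at 0 in both. These markers did not move as a set. Nr5a2 had means of 60.8 CPM in cKO and 131 CPM in control, and Cyp19a1, Kitl, Has2 and Hsd3b1 were lower in cKO too. Fshr (4.23 and 0.822 CPM), Amh, Foxl2, Inha and Inhba were higher in cKO. The part of other cell types in the results was not tested.

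None of the 8 genes shares an exon base with another annotated gene on GRCm38. Nobox is at chr6:43303674-43309554 on the minus strand and Figla at chr6:86016171-86020996 on the plus strand. Sohlh1 spans chr2:25842995-25847248 and Tbpl2 chr2:24071721-24096595, both on the minus strand. Sohlh2 is at chr3:55182028-55209957 on the plus strand and Lhx8 at chr3:154306294-154330659 on the minus strand. Foxo3 spans chr10:42181841-42276755 on the minus strand.

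The 250 bases before the start site are shown for Nobox, Figla, Sohlh1 and Tbpl2, the bHLH, homeodomain and TATA-factor genes with higher polyA levels in cKO oocytes at GV3h (for Sohlh1 the difference missed the test's threshold). They are RefSeq promoters on GRCm38.p6, written 5′ to 3′ on the strand of the gene. Capitals mark every match to CANNTG, the E-box bound by bHLH proteins, searched on both strands. The Figla window lies inside the annotated gene, between an upstream exon and the main start site.
Nobox, chr6:43309555-43309804, minus strand: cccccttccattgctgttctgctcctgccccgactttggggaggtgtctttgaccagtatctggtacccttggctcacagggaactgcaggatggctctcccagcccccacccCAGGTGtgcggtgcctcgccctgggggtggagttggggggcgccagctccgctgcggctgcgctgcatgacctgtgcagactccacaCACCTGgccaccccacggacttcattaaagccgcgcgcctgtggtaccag
Figla, chr6:86016941-86017190, plus strand: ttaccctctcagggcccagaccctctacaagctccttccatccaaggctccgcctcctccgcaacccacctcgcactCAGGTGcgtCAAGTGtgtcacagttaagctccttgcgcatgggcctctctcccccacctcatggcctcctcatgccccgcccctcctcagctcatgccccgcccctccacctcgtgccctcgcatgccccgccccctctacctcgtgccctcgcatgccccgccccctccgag
Sohlh1, chr2:25847249-25847498, minus strand: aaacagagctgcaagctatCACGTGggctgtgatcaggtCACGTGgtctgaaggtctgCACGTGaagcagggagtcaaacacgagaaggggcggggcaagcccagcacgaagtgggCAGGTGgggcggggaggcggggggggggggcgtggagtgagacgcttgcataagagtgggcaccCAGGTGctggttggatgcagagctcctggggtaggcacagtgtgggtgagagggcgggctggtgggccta
Tbpl2, chr2:24096596-24096845, minus strand: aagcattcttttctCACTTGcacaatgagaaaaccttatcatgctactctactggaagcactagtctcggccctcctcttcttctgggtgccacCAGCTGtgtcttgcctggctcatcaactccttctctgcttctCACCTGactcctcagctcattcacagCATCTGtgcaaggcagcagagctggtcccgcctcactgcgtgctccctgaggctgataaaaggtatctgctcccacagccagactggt
Nobox and Figla each hold 2 E-boxes, Tbpl2 holds 4 and Sohlh1 holds 5. Of the E-boxes of Sohlh1, 3 read CACGTG and lie with their first base 231, 211 and 192 bases before the start site. Of all 32841 RefSeq mouse promoters of this length, 66.2% hold at least 1 CANNTG, 31.8% hold 2 or more and 12.2% hold 3 or more. For CACGTG, whose matches are all matches to CANNTG as well, the shares are 6.02% with at least 1 and 0.0609% with 3 or more. Sohlh2 holds 1 CANNTG, and Lhx8 and Foxo3 hold none in this window. Neither TAATTG, a core bound by NOBOX and related homeodomains and present in 7.17% of promoters, nor the TATA-box letters TATAAA, present in 12.4%, occurs in any of the 7 promoters searched. A match is a description of letters, not a binding site. RefSeq gave a promoter for 7 of the 8 genes.

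In control oocytes at polyA GV, Nobox was the most abundant of the 8 per length of annotated exon, at 180 CPM per kb. Foxo3 followed at 90.5, Figla at 49.7, Lhx8 at 37.4, Tbpl2 at 8.85, Taf4b at 6.35 and Sohlh2 at 2.02 CPM per kb. Sohlh1 was close to absent, at 0.0495 CPM per kb. The ranges over the 2 control females did not overlap between neighbours in this order. RiboMinus GV controls gave the same 2 leading genes, Nobox at 237 and Foxo3 at 104 CPM per kb, but placed Lhx8 at 69.6 and Tbpl2 at 13.5 ahead of Figla at 9.87 CPM per kb. By polyA MII the control order was led by Foxo3 at 151 CPM per kb, with Nobox at 58.4 and Figla at 3.06, and neighbours from Lhx8 down to Taf4b overlapped. The lengths are merged exons of all annotated transcripts, so the order can differ from that of the transcript the oocyte uses.

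**Figure D1:**
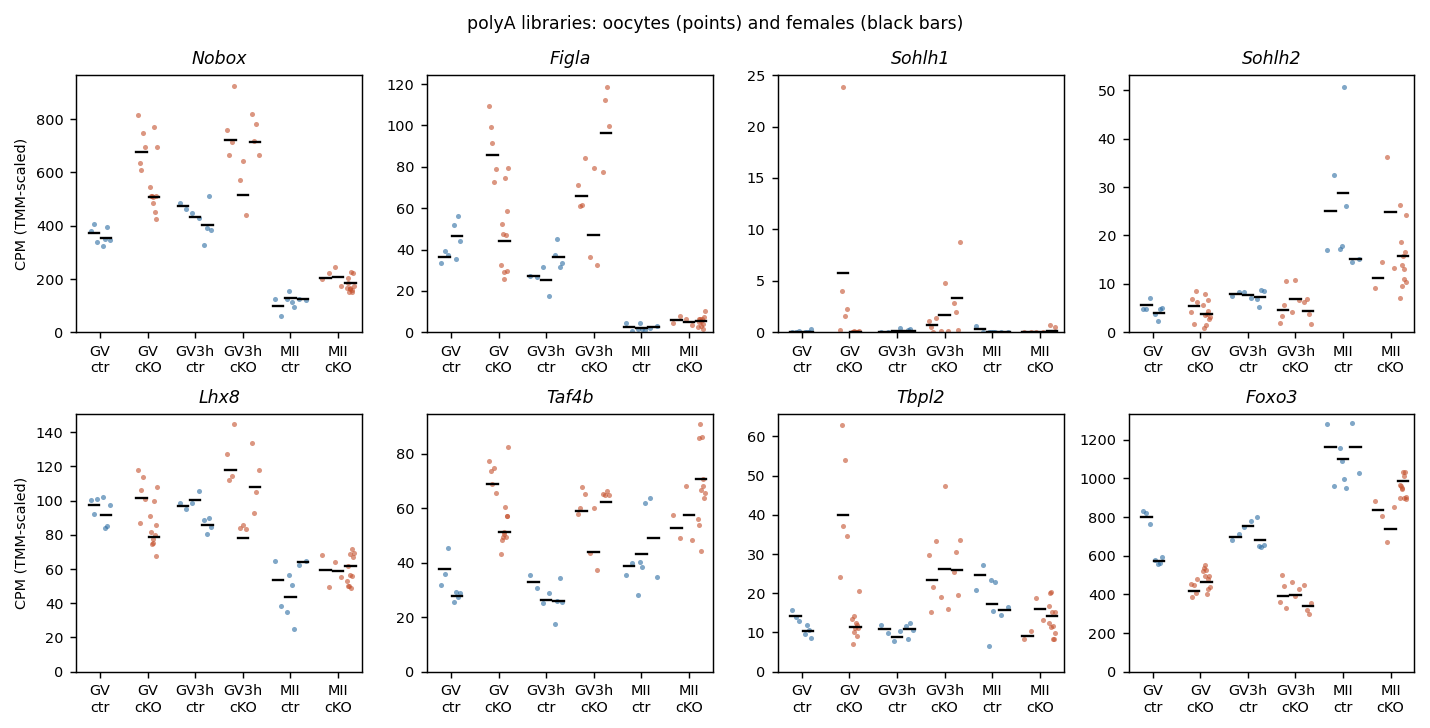
CPM (y axis, linear from 0) of the 8 genes in polyA libraries, by stage and genotype (x axis). Points are oocytes, placed in columns by female, and black bars are the value of each female from summed counts. Figla and Nobox drop and Foxo3 and Sohlh2 rise at MII, and in GV cKO the left female (V857) lies above the right one (V888) for Figla and Tbpl2.

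Loss of Exosc10 went with a higher polyA level of Nobox and a lower polyA level of Foxo3 at each of the 3 stages. Taf4b rose at GV and GV3h, Figla at GV3h and MII, and Tbpl2 at GV3h. At GV, 3 of the 8 genes passed the test (adjusted p under 0.05 over all genes), 2 higher and 1 lower, beside 7.38% of all 19242 genes tested, 3.47% higher and 3.91% lower. The number of genes called at GV, 1420, moved in both directions. It was 675 without V857, 345 without V856, 110 without V889 and 1 with only the GV groups in the fit of female sums, and it was 1825 without V888, 2729 with DESeq2 and 3265 with limma voom. At GV3h, 5 of 8 passed, 4 higher and 1 lower, beside 25.2% of all genes, 12.5% higher and 12.7% lower. The share of all genes called there was 15.7% to 24.9% with a female left out and 39.7% with only the GV3h groups in the fit of female sums. At MII, 3 of 8 passed, 2 higher and 1 lower, beside 18.9% of all genes, 11.9% higher and 6.99% lower. Over the 7 genes other than Sohlh1, which was tested through its cKO libraries alone, the median log2 fold change was 0.64 at GV, 0.57 at GV3h and 0.16 at MII, where all genes had medians of 0.08, 0.07 and 0.12. Scaling by library totals moved the all-gene medians of GV and GV3h to 0.27 and 0.29, and turned the split of genes higher and lower from 667 and 753 to 1054 and 367 at GV and from 2402 and 2447 to 3533 and 1475 at GV3h.

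**Figure D2:**
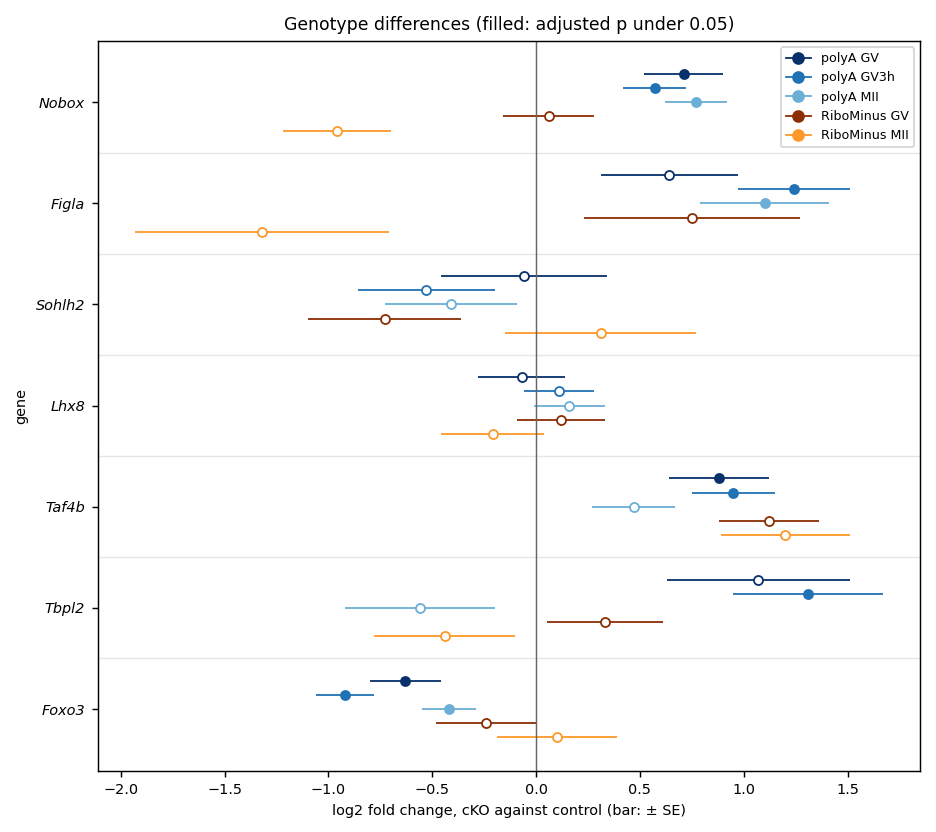
Log2 fold change of cKO against control (x axis, bars ± SE from the fit) for 7 genes (y axis) in 5 comparisons. Filled points have an adjusted p under 0.05. For Nobox and Figla the RiboMinus MII points lie at -0.96 and -1.32, on the other side of 0 from the polyA MII points at 0.77 and 1.10. Sohlh1, with few counts in most oocytes, is left out for scale.

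Nobox was higher in cKO at every polyA stage. At GV the 2 control females had 372 and 354 CPM and the 2 cKO females 677 and 508 CPM, and no cKO oocyte (426 to 817) fell among the control oocytes (326 to 407). The log2 fold change was 0.71 ± 0.19 (SE, adjusted p = 0.0314). At GV3h the control females had 476, 435 and 405 CPM and the cKO females 721, 516 and 713 CPM. The 2 sets did not overlap, with a log2 fold change of 0.57 ± 0.15 (adjusted p = 0.0123). At MII all levels were lower, with 98.9, 129 and 125 CPM in control and 206, 207 and 187 CPM in cKO females, a log2 fold change of 0.77 ± 0.15 (adjusted p = 0.00312). The MII call was made under every alternative. The GV call was lost without V857 (cKO), V856 or V889 (controls), with adjusted p up to 0.225, and with only the groups compared in the fit. At GV3h it was lost without V946, V993 or V995, with adjusted p up to 0.0584.

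RiboMinus libraries gave another picture for Nobox. At GV the control females had 489 and 466 CPM and the cKO females 455 and 538 CPM, a log2 fold change of 0.06 ± 0.22. At MII the 3 control oocytes, all of female V1145, had 484 to 548 CPM, and the 4 cKO oocytes had 224 to 324 CPM. The cKO females, at 239 and 307 CPM, lay below the control female, with a log2 fold change of -0.96 ± 0.26 that just missed the threshold (adjusted p = 0.0591). It passed with DESeq2, with limma voom, without a filter on low counts and with a mean of at least 50 counts.

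Figla was higher in cKO oocytes at polyA GV3h and MII. At GV3h the control females had 27.0, 25.1 and 36.4 CPM and the cKO females 65.8, 47.0 and 96.4 CPM. No cKO female overlapped a control female, and the log2 fold change was 1.24 ± 0.27 (adjusted p = 0.00403), called under every alternative. At MII the level was a small fraction of that, with 2.77, 2.33 and 2.58 CPM in control and 5.92, 4.85 and 5.53 CPM in cKO females. The females were still apart, with a log2 fold change of 1.10 ± 0.31 (adjusted p = 0.0218), but the call was lost with limma voom, with only the groups compared in the fit, and without V841, V897, V853 or V896 (adjusted p up to 0.256). At GV the control females had 36.5 and 46.5 CPM. The cKO female V857 had 85.7 CPM and V888 had 44.2 CPM, so that the groups overlapped and the difference did not pass (log2 fold change 0.64 ± 0.33, adjusted p = 0.25). RiboMinus levels were 7.93 and 8.58 CPM in GV control females and 10.3 and 17.6 CPM in GV cKO females. At RiboMinus MII the control female had 19.9 CPM and the cKO females 4.07 and 11.8 CPM (log2 fold change -1.32 ± 0.61, adjusted p = 0.2).

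Sohlh1 had the lowest level per kb of the 8 in 9 of the 10 groups, the exception being polyA GV cKO, where Sohlh2 was lower. Control oocytes held 0 to 4 counts over all groups of both library types. In polyA GV cKO, the 5 oocytes of female V857 held 2, 25, 172, 13 and 20 counts, whereas the 10 oocytes of V888 held 0 or 1 count each. At polyA GV3h, 10 of 11 cKO oocytes had at least 1 count, up to 72, and the 3 cKO females had 0.755, 1.66 and 3.31 CPM against 0 to 0.179 CPM in controls. All 7 RiboMinus GV cKO oocytes had counts, from 2 to 26, against 0 to 4 in the 8 controls. None of these differences passed with edgeR on all groups: the adjusted p was 0.103 at polyA GV, 0.068 at polyA GV3h and 0.613 at RiboMinus GV. The 3 RiboMinus MII control oocytes had no Sohlh1 count, which allows a level of up to 0.0563 CPM over the group. That limit is for 3 counts, with counting error only, and is taken over total gene counts without TMM scaling. The filter on low counts keeps a gene that reaches a set level in as many females as the smallest group has, in whichever groups they are. No control female reached that level for Sohlh1, so the gene was tested through its cKO libraries in both library types.

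**Figure D3:**
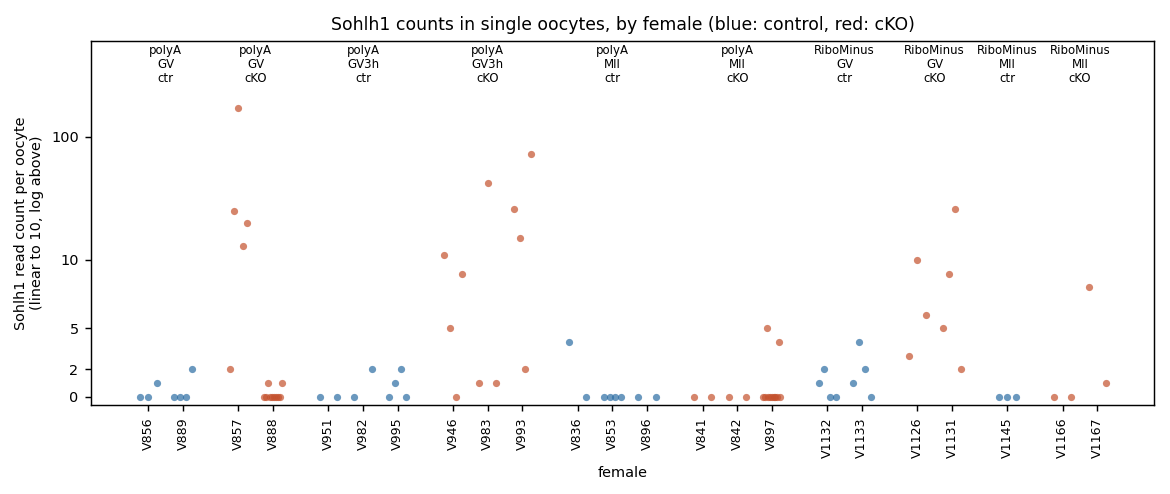
Sohlh1 read counts (y axis, linear to 10 and logarithmic above) in each oocyte, grouped by female (x axis). The highest counts, 172 in V857 and 72 in V993, are in polyA cKO oocytes, while control oocytes reach at most 4.

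Sohlh2, the bHLH partner of SOHLH1, and Lhx8 did not pass a genotype test in either library type with edgeR on all groups. At polyA GV3h some other settings called a further member, in each case Sohlh1, Sohlh2 or Lhx8. Sohlh2 had 5.61 and 3.95 CPM in polyA GV control females and 5.35 and 3.83 CPM in cKO females, a log2 fold change of -0.06 ± 0.40. At GV3h the 3 control females, at 7.97, 7.71 and 7.39 CPM, lay above the 3 cKO females, at 4.68, 6.85 and 4.43 CPM, but the difference of -0.53 ± 0.33 had an adjusted p of 0.261. In RiboMinus GV the control females had 17.8 and 14.8 CPM and the cKO females 11.4 and 8.29 CPM, also without overlap (log2 fold change -0.73 ± 0.37, adjusted p = 0.407). Lhx8 stayed within narrow limits, with polyA female values of 78.45 to 118 CPM over the 4 GV and GV3h groups and log2 fold changes of -0.07 ± 0.21 at GV, 0.11 ± 0.17 at GV3h and 0.16 ± 0.17 at MII.

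Taf4b, whose annotated gene spans chr18:14783245-14900359 on the plus strand, was higher in cKO oocytes at GV in the polyA libraries. The control females had 37.6 and 27.8 CPM and the cKO females 68.9 and 51.4 CPM, a log2 fold change of 0.88 ± 0.24 (adjusted p = 0.0381). At GV3h the controls had 33.1, 26.5 and 25.9 CPM and the cKO females 59.0, 44.0 and 62.2 CPM, with every cKO oocyte above every control oocyte. That log2 fold change of 0.95 ± 0.20 (adjusted p = 0.00286) was called under every alternative, whereas the GV call was lost without V857, V856 or V889 (adjusted p up to 0.329) and with only the groups compared in the fit. At MII the females were still apart, at 38.7, 43.1 and 49.0 CPM in control and 52.8, 57.6 and 70.8 CPM in cKO, but the log2 fold change of 0.47 ± 0.20 did not pass (adjusted p = 0.106).

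RiboMinus levels of Taf4b were 42.7 and 40.4 CPM in GV control females and 80.1 and 100.4 CPM in GV cKO females. The log2 fold change of 1.12 ± 0.24 had an adjusted p of 0.116, and it passed with DESeq2 (0.00116), limma voom (0.0435), without a filter on low counts and without V1126. At RiboMinus MII the control oocytes had 18.6 to 24.2 CPM and the cKO oocytes 44.1 to 70.4 CPM, with no overlap. The log2 fold change was 1.20 ± 0.31, with an adjusted p of 0.0501. Taf4b thus had estimates of 0.47 to 1.20 in all 5 genotype comparisons, with the females of the genotypes apart in each.

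Tbpl2 rose in cKO oocytes at polyA GV3h. The control females had 10.8, 8.88 and 10.8 CPM and the cKO females 23.4, 26.2 and 25.9 CPM, and no oocyte of one genotype fell within the range of the other. The log2 fold change was 1.31 ± 0.36 (adjusted p = 0.0161), lost only without control female V982 (adjusted p = 0.0667). At GV the cKO females parted, with V857 at 39.9 CPM and V888 at 11.3 CPM beside controls at 14.2 and 10.3 CPM, and the difference of 1.07 ± 0.44 did not pass (adjusted p = 0.151). At MII the controls had 24.7, 17.3 and 15.8 CPM and the cKO females 9.11, 15.9 and 14.1 CPM (log2 fold change -0.56 ± 0.36, adjusted p = 0.297). RiboMinus females had 17.5 to 19.7 CPM in GV controls and 23.2 to 23.5 CPM in GV cKO (log2 fold change 0.33 ± 0.28, adjusted p = 0.636). At RiboMinus MII the control female had 21.6 CPM and the cKO females 16.15 and 15.6 CPM, a log2 fold change of -0.44 ± 0.34 that was not called.

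Foxo3 was the one member that edgeR called lower in cKO in the polyA libraries. In polyA GV the control females had 799 and 571 CPM and the cKO females 420 and 462 CPM, with no oocyte overlap and a log2 fold change of -0.63 ± 0.17 (adjusted p = 0.0307). At GV3h the control females had 697, 754 and 682 CPM and the cKO females 391, 396 and 340 CPM. The log2 fold change of -0.92 ± 0.14 (adjusted p = 0.000282) was called under every alternative, and again no oocytes overlapped. At MII the females had 1164, 1101 and 1163 CPM in control and 835, 739 and 989 CPM in cKO, a log2 fold change of -0.42 ± 0.13 (adjusted p = 0.0402). The GV and MII calls were lost under library totals. The GV call was lost too with only the groups compared in the fit and without V857 or V856 (adjusted p up to 0.301), and the MII call was lost without a filter on low counts and without V841, V842, V836, V853 or V896 (adjusted p up to 0.156). RiboMinus levels overlapped between genotypes at both stages, with 825 and 748 CPM in GV control, 785 and 543 CPM in GV cKO, 589.9 CPM in MII control and 690 and 578 CPM in MII cKO females.

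**Figure D4:**
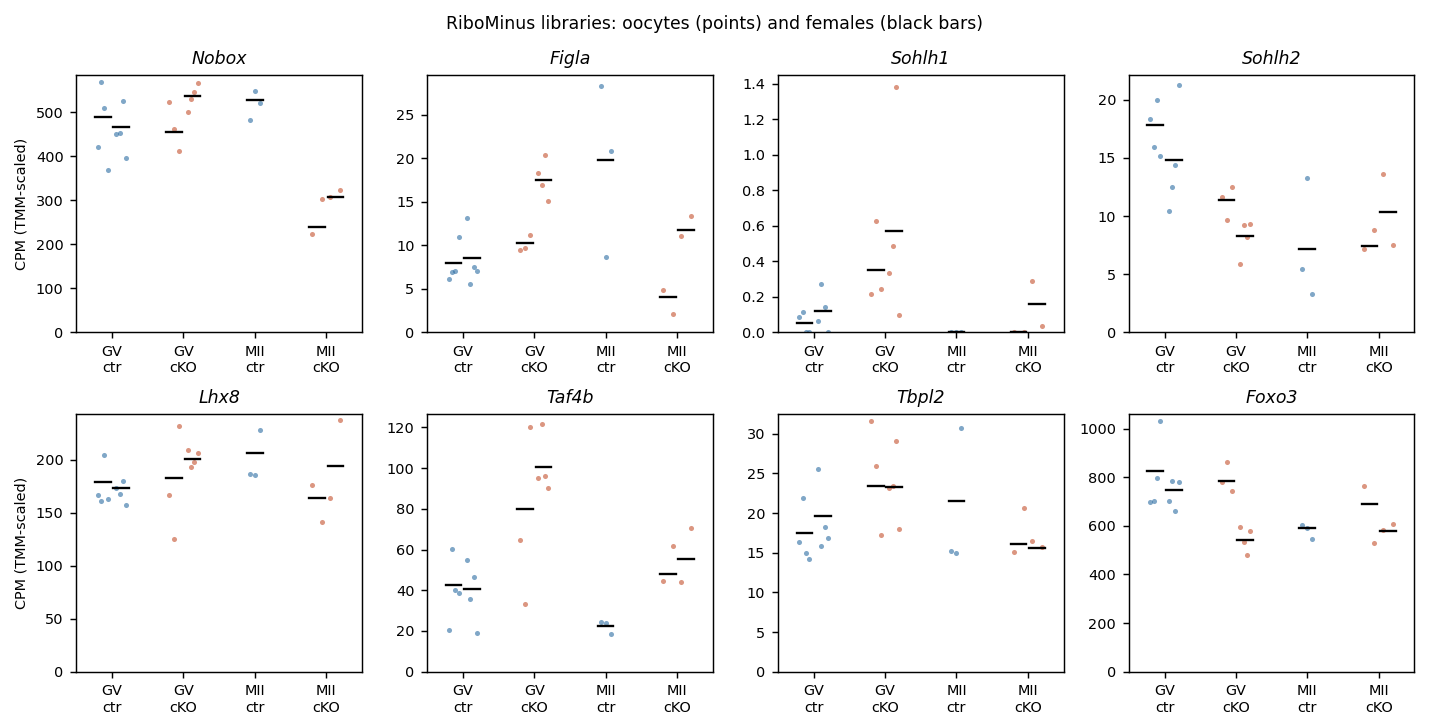
CPM (y axis, linear from 0) of the 8 genes in RiboMinus libraries, by stage and genotype (x axis), with points for oocytes and black bars for females. Taf4b is higher in cKO at both stages, and Nobox is lower in MII cKO (239 and 307 CPM) than in the other 3 groups (455 to 538 CPM).

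In the RiboMinus libraries, edgeR called 0 of the 8 genes by genotype at GV, beside 0.0315% of all 25425 genes tested. An unadjusted p under 0.05 was found for 1 member and for 14.7% of all genes. DESeq2 and limma voom each called 1, Taf4b, beside 6.19% and 8.32% of all genes. At RiboMinus MII edgeR called 0 of 8 beside 7.3% of all genes. An unadjusted p under 0.05 was found for 2 members, beside 27.4% of all genes. DESeq2 called Nobox and Taf4b beside 20.6% of all genes, and limma voom called Nobox and Figla beside 24.8%, so that 2 of 8 is near the share of all genes. Theca and stroma markers (6.29 to 26.3 CPM in cKO, 0 to 0.195 CPM in control) and granulosa and cumulus markers (69.6 to 107 and 152 to 171 CPM) differed in this comparison too, and their part in the result was not tested. The RiboMinus fit had 3 residual degrees of freedom against 10 in the polyA fit, and the single MII control female was assumed to vary like the others.

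Whether the genotype difference itself depended on the library type was tested in a fit of all 23 females, a comparison added after the values were seen. At MII, the cKO-to-control log2 fold change of Nobox was higher in polyA than in RiboMinus libraries by 1.68 ± 0.28 (adjusted p = 0.000842), and that of Figla by 2.38 ± 0.62 (adjusted p = 0.0191). These were 2 of 8 members, beside 9.43% of the 24777 genes tested. The Nobox difference was called under every alternative run, none of which leaves out V1145, the only RiboMinus MII control female, and the Figla difference was lost without V1166 (adjusted p = 0.0684). At GV, edgeR, the one tool run here, called 0 of 8 members beside 0.00404% of all genes. Of the members 1 (Nobox, 0.59 ± 0.27) had an unadjusted p under 0.05, beside 2.24% of all genes.

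Between GV and MII, 5 of the 8 genes passed in the polyA libraries of both genotypes, in opposite directions. Figla, Nobox and Lhx8 fell and Sohlh2 and Foxo3 rose, in control and in cKO oocytes alike. In controls 5 of 8 passed, 2 higher and 3 lower, beside 42.5% of all genes, 16.8% higher and 25.7% lower. In cKO 6 of 8 passed, 2 higher and 4 lower, beside 44.7% of all genes, 18.1% higher and 26.6% lower. One of the 4 is Sohlh1, which was lost without female V857, and the other 5 calls are of the genes called in controls. The all-gene median was -0.26 in control and -0.33 in cKO. Scaling by library totals moved it to -0.69 and -0.86, and moved the split of genes higher and lower from 3230 and 4952 to 1790 and 6594 in control and from 3487 and 5123 to 1876 and 7483 in cKO. All directions named here were kept under that scaling, though the rise of Foxo3 in controls no longer passed.

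Figla had the largest fall of the 5 genes. From 36.5 and 46.5 CPM in GV control females it went to 2.33 to 2.77 CPM at MII, a log2 fold change of -4.03 ± 0.33 (adjusted p = 1.05e-07), and in cKO the fall was -3.58 ± 0.32. Nobox fell by 1.63 ± 0.17 on the log2 scale in control and by 1.57 ± 0.17 in cKO oocytes. Lhx8 went from 91.7 and 97.5 CPM to 43.6, 53.7 and 64.4 CPM in control females, a log2 fold change of -0.81 ± 0.19 (adjusted p = 0.00271). In cKO the Lhx8 change was -0.59 ± 0.19 (adjusted p = 0.0196), lost without V857 (adjusted p = 0.209). For Figla and Nobox no MII oocyte overlapped a GV oocyte of its genotype, and neither call was lost under any alternative.

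Sohlh2 rose from 5.61 and 3.95 CPM at GV to 25.1, 28.8 and 15.1 CPM at MII in control females, a log2 fold change of 2.27 ± 0.40 (adjusted p = 0.000234). In cKO it rose from 5.35 and 3.83 CPM to 11.3, 24.9 and 15.9 CPM, a log2 fold change of 1.92 ± 0.39 (adjusted p = 0.000818). Both rises were called under every alternative. Foxo3 rose by 0.74 ± 0.15 in control (adjusted p = 0.00102) and by 0.95 ± 0.16 in cKO oocytes, with every MII oocyte above every GV oocyte of the same genotype. Taf4b and Tbpl2 did not pass in either genotype. In cKO, Tbpl2 had a log2 fold change of -0.97 ± 0.39 (adjusted p = 0.0556), and Sohlh1 had an estimate of -5.28 ± 1.61. Sohlh1 is in the test through its cKO libraries, and 232 of the 234 counts of GV cKO are from V857, so its call supports nothing: without V857 the estimate was 1.32 and was not called.

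**Figure D5:**
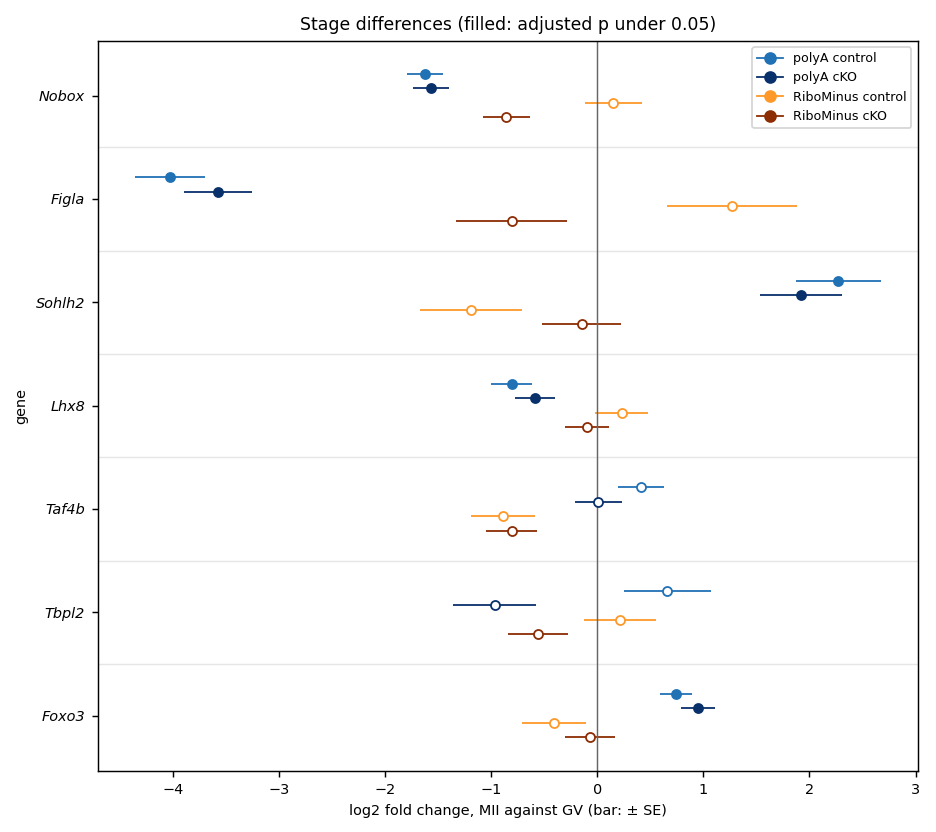
Log2 fold change of MII against GV (x axis, bars ± SE from the fit) for 7 genes (y axis) in control and cKO oocytes of both library types. Filled points have an adjusted p under 0.05. The polyA points of Figla (-4.03 and -3.58) and Sohlh2 (2.27 and 1.92) lie away from the RiboMinus points (1.27 and -0.81 for Figla, -1.19 and -0.15 for Sohlh2).

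With edgeR on all groups, no member passed the stage test in the RiboMinus libraries. In controls edgeR called 0 of 8 members beside 0.00787% of all genes, and 2 members had an unadjusted p under 0.05, beside 15.1% of all genes. DESeq2 and limma voom called 0 members beside 6.08% and 7% of all genes. With only these 2 groups in the fit of female sums (3 females), edgeR called 4 members, Figla, Sohlh2, Taf4b and Foxo3, and 27.9% of all genes. In cKO edgeR on all groups called 0 of 8 beside 2.32% of all genes, and 2 members had an unadjusted p under 0.05, beside 20.3% of all genes. There DESeq2 called Nobox and Taf4b beside 11.5% of all genes and limma voom called Nobox beside 19.9%. Theca and stroma markers summed to 0.572 to 2.15 CPM in RiboMinus GV cKO and to 6.29 to 26.3 CPM in RiboMinus MII cKO, and granulosa and cumulus markers to 97.0 to 203 and 69.6 to 107 CPM, and their part in the result was not tested. Figla had 7.93 and 8.58 CPM in RiboMinus GV control females and 19.9 CPM in the MII control female, a log2 fold change of 1.27 ± 0.61. For Sohlh2 the values were 17.8 and 14.8 CPM at GV and 7.15 CPM at MII (log2 fold change -1.19 ± 0.48). Foxo3 went from 825 and 748 to 589.9 CPM (log2 fold change -0.41 ± 0.30), and Lhx8 from 179 and 173 to 206 CPM (0.23 ± 0.25).

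The difference between library types in the GV-to-MII change was tested in the added fit. In controls it passed for 5 of 8 members, beside 22.8% of all genes. The polyA change was lower than the RiboMinus change by 5.13 ± 0.64 for Figla and by 1.61 ± 0.29 for Nobox, given as differences of log2 fold changes. It was higher by 3.63 ± 0.65 for Sohlh2, 1.48 ± 0.39 for Taf4b and 1.32 ± 0.30 for Foxo3. In cKO it passed for 4 of 8, beside 20.7% of all genes, with -2.57 ± 0.57 for Figla, 2.25 ± 0.53 for Sohlh2, 1.00 ± 0.33 for Taf4b and 1.20 ± 0.26 for Foxo3. Under library totals the Taf4b differences and, in cKO, those of Sohlh2 and Foxo3 no longer passed. In cKO only Figla of the 4 kept its call under that scaling, and members other than the 4 gained one. The cKO difference of Taf4b was lost as well with DESeq2 size factors and without V888, V897, V1131 or V1166 (adjusted p up to 0.584).

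No member passed the test for a change over 3 hours of culture. For GV3h against GV edgeR called 0 of 8 members and 0% of all genes in control and 0 of 8 and 0% in cKO oocytes, with no member at an unadjusted p under 0.05. Of all genes, 425 in control and 373 in cKO had an unadjusted p under 0.05, DESeq2 called 16 and 17, and limma voom called 17 and 31. The widest estimates among the members other than Sohlh1 were Sohlh2 at 0.69 ± 0.38 and Figla at -0.49 ± 0.30, both in controls.

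EdgeR called no change of the genotype difference with stage for any of the 8, and other tools called 1 to 2 members in 2 of the 3 interactions. For GV3h against GV the interaction was called by edgeR for 0 of 8 members and 0% of all genes, with 307 genes and no member at an unadjusted p under 0.05, and DESeq2 and limma voom called 0 genes. For MII against GV in polyA libraries it was called for 0 of 8 beside 1.94% of all genes. Tbpl2 (-1.62 ± 0.57, adjusted p = 0.162) and Sohlh1 (-5.82 ± 2.72) had an unadjusted p under 0.05, as had 16% of all genes. Sohlh1 was tested through its cKO libraries alone, and 232 of its 234 counts in GV cKO are from V857, so its value supports nothing. DESeq2 called Tbpl2 (adjusted p = 0.0466), beside 5.83% of all genes. In RiboMinus libraries the interaction was called for 0 of 8 and 0% of all genes. Nobox (-1.01 ± 0.34) and Figla (-2.08 ± 0.81) had an unadjusted p under 0.05, as had 14.2% of all genes. DESeq2 called 0 members there beside 4.43% of all genes, and limma voom called those 2 beside 4.36%.

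Genes that work with or downstream of the 8 were described in 3 lists drawn from textbook knowledge, with results of these data known. Of the 28 oocyte genes downstream of NOBOX, FIGLA, the SOHLH factors and LHX8, 2 rose and 7 fell in cKO at polyA GV3h, with a list median of -0.32 beside 0.07 for all genes, of which 12.5% rose and 12.7% fell. Jag1, a Notch ligand, fell by 1.25 ± 0.20 on the log2 scale, Oosp3 by 1.04 ± 0.34 and Rfpl4 by 0.95 ± 0.21, whereas Kdm1b, a histone demethylase, rose by 1.23 ± 0.29. At polyA GV only Rfpl4 passed, with a log2 fold change of -0.95 ± 0.26, where 3.47% of all genes rose and 3.91% fell. At polyA MII 8 rose and 3 fell, with a list median of -0.05 beside 0.12 for all genes, of which 11.9% rose and 6.99% fell. The zona pellucida genes Zp2 and Zp3 rose by 2.03 ± 0.18 and 1.56 ± 0.25, and Nlrp14 and Fetub, a protein that keeps the zona from hardening early, rose by 1.40 ± 0.15 and 1.39 ± 0.28. In RiboMinus MII, with 1 control female, 8 of these 28 genes fell and none rose, beside 7.3% of all genes called in either direction. The marker sums of other cell types given above differed in that comparison too. Ooep (-1.97 ± 0.25) and Nlrp5 (-1.69 ± 0.30), genes of the subcortical maternal complex, fell there, as did the histone chaperone gene Npm2 (-1.71 ± 0.23) and Dppa3 (-1.66 ± 0.23). At RiboMinus GV none of the 28 passed with edgeR, beside 0.0315% of all genes.

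Over meiotic maturation in polyA controls, 10 of the 28 downstream genes rose and 11 fell, and in cKO 11 rose and 9 fell, with list medians of -0.09 and 0.25 beside -0.26 and -0.33. Of all genes, 16.8% rose and 25.7% fell in controls, and 18.1% rose and 26.6% fell in cKO. The falls in controls included Gja4 (-3.20 ± 0.24), the connexin that couples oocyte and granulosa cells, Ooep (-3.15 ± 0.20), Zp3 (-2.95 ± 0.27) and Fetub (-2.89 ± 0.31). The interaction of genotype and stage was called for 5 of the 28, among them Fetub (2.44 ± 0.43), Zp2 (1.53 ± 0.28), Nlrp14 (1.36 ± 0.24) and Ooep (1.27 ± 0.27), beside 1.94% of all genes. The 5 had a positive sign, as had 305 of the 373 genes called. DESeq2 called 5.83% of all genes, 654 higher and 467 lower, and the fit of female sums on the groups compared called 0.0722%. In the RiboMinus libraries none passed in controls, and 2 fell in cKO, beside 0.00787% and 2.32% of all genes.

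Among 25 partners and general factors, 23 were tested in polyA and 25 in RiboMinus libraries. In cKO at polyA GV none passed, at GV3h 5 rose and 2 fell, and at MII 2 rose, with list medians of 0.15, 0.12 and 0.10. At GV 3.47% of all genes rose and 3.91% fell, the GV3h shares were 12.5% and 12.7% and the MII shares 11.9% and 6.99%, and nothing particular to the 23 genes is read from their counts. At GV3h the risers included Tbpl1 (1.39 ± 0.31), the other TATA-factor relative, the E protein gene Tcf12 (1.23 ± 0.32) and the germ-cell TFIIA gene Gtf2a1l (0.72 ± 0.21). The FOXO paralog Foxo4 is counted among the 5, at 1.27 CPM in cKO and 0.168 CPM in controls, but it too was tested through its cKO libraries alone, so its call supports nothing. At MII, Gtf2b, which encodes TFIIB, rose by 0.84 ± 0.19 and Stat3 by 0.49 ± 0.16. In RiboMinus MII, where 7.3% of all genes passed, 2 fell, Dynll1 by 1.56 ± 0.32 and Sub1 by 1.33 ± 0.25, and at RiboMinus GV edgeR called none of the 25, beside 0.0315% of all genes. From GV to MII in polyA controls 12 rose and 4 fell, beside 16.8% and 25.7% of all genes, with a list median of 0.73 beside -0.26. Tbpl1 (2.24 ± 0.37) and the genes of TFIIA subunits, Gtf2a1 (1.65 ± 0.23) and Gtf2a2 (126.8 to 472.5 CPM), rose, and Dynll1 fell by 3.07 ± 0.19. In cKO 11 rose and 6 fell, beside 18.1% and 26.6% of all genes.

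Of 30 genes of the FOXO3 pathway, which runs from the receptor KIT through PI3K and AKT to FOXO3 and its targets, 1 rose and 1 fell in cKO at polyA GV. At GV3h 5 rose and 5 fell, and at MII 3 rose and 4 fell. Among all genes 3.47% rose and 3.91% fell at GV. The GV3h shares were 12.5% and 12.7%, the MII shares were 11.9% and 6.99%, and nothing particular to the 30 genes is read from their counts. List medians were 0.00, -0.07 and -0.10. Sirt1, which encodes a deacetylase acting on FOXO proteins, rose by 1.59 ± 0.42 at GV and by 1.89 ± 0.35 at GV3h. Pik3r1, a regulatory subunit of PI3K, fell by 1.02 ± 0.21 and by 1.40 ± 0.17. At GV3h the FOXO target Gadd45a rose by 1.57 ± 0.48 and Rptor, of the kinase complex mTORC, by 1.22 ± 0.28. At MII Pink1 (1.69 ± 0.40), Tsc2 (1.16 ± 0.19) and Sgk1 (1.06 ± 0.30) rose and Rps6kb1 (-1.16 ± 0.22) fell. Kit, which is also in the downstream list, fell by 1.54 ± 0.23 at RiboMinus MII, where Cdkn1b fell by 1.29 ± 0.32 and no other gene of the 30 passed, beside 7.3% of all genes. At RiboMinus GV edgeR called none of the 30, beside 0.0315% of all genes. From GV to MII 11 rose and 4 fell in polyA controls, beside 16.8% and 25.7% of all genes, and 9 and 6 in cKO, beside 18.1% and 26.6%. In controls Akt1 (1.85 ± 0.23) and Bcl2l11 (1.81 ± 0.34) rose and Pink1 (-1.61 ± 0.42) fell. Rps6, a ribosomal protein gene with near-identical copies whose reads may be split, is counted among the falls of both genotypes, but it was tested through its GV and GV3h libraries alone, so its calls support nothing.

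Over the 16 polyA females, Nobox and Figla had a Pearson r of 0.97 for log2(CPM + 1), and both had a negative r with Foxo3 (-0.91 and -0.90). Lhx8 went with Nobox (r = 0.90) and Sohlh2 against it (r = -0.88), whereas Taf4b had r = 0.02 with Nobox and 0.57 with Tbpl2. These values are descriptions over females that share stage and genotype. Of 9135 genes, those most like Nobox were Hspa4 (r = 0.99), Dalrd3 (0.987) and Irf3 (0.983), and those most like Figla were Mrpl43 (0.99), Atp5f1 (0.989) and Avpi1 (0.989). Foxo3 was closest to 1700087M22Rik (0.993), Ern1 (0.981) and Eif2ak4 (0.98). Rsbn1 led for Sohlh2 (0.957), Gm48933 for Lhx8 (0.948), Fgfr1op for Taf4b (0.95) and Dnmbp for Tbpl2 (0.899). Sohlh1 was too low for this measure.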

How the data were processed

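Each deposited gene file gives raw counts by Ensembl gene ID for 1 oocyte, not normalized. Per the submitters' processing notes, the authors used cutadapt 2.5, STAR 2.7.2a, HTSeq 0.9.1 and mm10; the strand setting is not given in the sources used here. The files have 0 ERCC spike-in lines, so total RNA cannot be compared. Reads outside genes (5.86% to 14.2%), ambiguous reads (2.07% to 3.19%) and 22 rRNA files were left out. The V number in each title was taken as the female.

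Counts summed per female were fitted per library type with edgeR 4.0.16 in R 4.3.3 (filterByExpr, TMM, glmQLFit, glmQLFTest, two-sided), with 16 polyA females in 6 groups and 7 RiboMinus females in 4. Contrasts were 5 for genotype, 6 for stage and 3 for their interaction. P-values measure the spread between females and were Benjamini-Hochberg adjusted over all genes tested, called under 0.05. Adjusted p values are from edgeR unless another tool is named, and SE is the log2 fold change over the root of F. Scripts were tested on simulated data. Comparisons between library types (4) were added after values were seen. Alternatives were DESeq2 1.42.0, limma 3.58.1 voom on oocytes with the female as a random block, DESeq2 size factors, library totals, no filter, a mean of at least 50 counts, only the groups compared (female sums or oocytes), and each female left out, except V1145, the only RiboMinus MII control female, whose oocytes were left out singly. All 8 members were named, and of each list at most 4 called genes per contrast, by size of change. Likeness used genes with a mean log2 CPM of at least 3. The members and lists were chosen with earlier results of these data known.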

Additional observations from a re-analysis of the deposited data

Results flagged for a closer look

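Outlying oocytes were sought by the gap of the highest or lowest oocyte to its nearest neighbour (Dixon's 95% critical values) in the 6 groups of 4 to 10 oocytes, which is 48 of the 80 combinations of gene and group, and 4 were found. Chance marks about 1 in 20 where values are normal, which does not hold for Sohlh1 at its few counts. In polyA MII control V836_1 was the only oocyte with a Sohlh1 count, so any level would have marked it. For Sohlh1 the outlying oocytes were V836_1 in polyA MII control at 0.646 CPM (median of the others 0), V1131_3 in RiboMinus GV cKO at 1.38 CPM (0.291) and V1167_1 in RiboMinus MII cKO at 0.287 CPM (0). For Foxo3 it was V1132_4 in RiboMinus GV control at 1030 CPM (704). The 3 polyA cKO groups have more oocytes and the RiboMinus MII controls fewer, so these 4 groups were not searched. In one of them, polyA GV cKO, Sohlh1 was at 23.9 CPM in V857_3 and at 4.06 CPM in the next oocyte, named here after its value was seen. Oocytes of one female share their source, so these groups are not of independent values.

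The other values stood out because polyA and RiboMinus libraries differed under the same contrast, by the test of that difference. For MII against GV in controls the polyA minus RiboMinus difference of log2 fold changes was -1.61 for Nobox, -5.13 for Figla, 3.63 for Sohlh2, 1.48 for Taf4b and 1.32 for Foxo3. For MII against GV in cKO it was -2.57 for Figla, 2.25 for Sohlh2, 1.00 for Taf4b and 1.20 for Foxo3. For cKO against control at MII it was 1.68 for Nobox and 2.38 for Figla. All 11 were called by edgeR in the added fit, and V1145 is the only RiboMinus MII control female in each of the control and MII differences.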

How the results depend on the processing

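Of 1933 values of single members under an alternative, 1819 kept their direction or lacked a call in both fits and kept their side of the threshold, 71 gained a call, 42 lost one and 1 reversed. The reversed value was the Sohlh1 change from GV to MII in polyA cKO, 1.32 without V857 (-9.18 to 1.32 over the females left out). No paired analysis was possible because the groups compared share no female.

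The number of members called moved by over 1.5 times, or over the females left out, as follows. At polyA GV by genotype (3) it was 0 with only the groups compared in the fit of female sums and 0 to 5 with a female left out, at polyA MII (3) 1 to 2, at polyA GV3h (5) 4 to 5, and for the cKO change from GV to MII (6) 4 to 7. For the polyA MII interaction (0) it was 1 with DESeq2, 2 without a filter, 1 with each oocyte as a replicate and 0 to 1 with a female left out. At RiboMinus GV by genotype (0) it was 1 with limma voom, DESeq2 or no filter, 3 with each oocyte as a replicate and 0 to 1 with a female left out. At RiboMinus MII by genotype (0) it was 2 with limma voom, DESeq2, no filter, a mean of at least 50 counts or each oocyte as a replicate, 1 with DESeq2 size factors or library totals, and 0 to 2 with a female or MII oocyte left out. For the RiboMinus change from GV to MII in controls (0) it was 4 with each oocyte as a replicate or only the groups compared. In cKO (0) it was 1 with limma voom, no filter or each oocyte as a replicate, 2 with DESeq2 and 0 to 1 left out. For the RiboMinus interaction (0) it was 2 with limma voom or each oocyte as a replicate. For the MII genotype difference between library types (2) it was 1 to 2 left out, and for the GV-to-MII difference between them 5 to 6 in control (5) and 3 to 4 in cKO (4). Other settings moved counts by a net 1 member each, given with the share of all genes called. At polyA GV it was 2 with library totals (7.38%) and 4 with DESeq2 (14.2%) or no filter (5.94%). At GV3h it was 6 with limma voom (33.4%), DESeq2 (29.6%), no filter (13.6%) or only the groups compared in the fit of female sums (39.7%). At MII it was 2 with library totals (20%), no filter (11%) or that fit (18.3%) and 4 with each oocyte as a replicate (37.6%). For the polyA change from GV to MII in control (5) it was 4 with library totals (43.6%) and 6 with DESeq2 (45.5%) or each oocyte as a replicate (63.4%). In cKO (6) it was 5 with limma voom (59.5%) or the groups compared (37.7% for female sums, 74.8% for oocytes). It was 7 there with DESeq2 (47.1%), library totals (48.6%) or no filter (22.8%). Between library types it was 6 with DESeq2 size factors in control (23.3%), and 3 with those (20.4%) or library totals (21.5%) in cKO. An equal count need not be the same genes: limma voom lost Figla at polyA MII. With each oocyte as a replicate, 37.6% of all genes were called at RiboMinus GV and 23.7% at RiboMinus MII by genotype. For the RiboMinus change that fit called 30.9% in controls and 16.1% in cKO. For the MII interactions it called 14.8% in RiboMinus and 14.7% in polyA libraries. Without a filter 4.74% were called at RiboMinus GV and 11.9% at RiboMinus MII by genotype. The RiboMinus change in cKO then had 7.52% and the polyA MII interaction 2.94%. By genotype at RiboMinus MII the share was 14.3% with a mean of at least 50 counts, 6.97% with DESeq2 size factors and 6.9% with library totals. At polyA GV the fit of female sums on the groups compared called 0.00555% of all genes. Nothing particular to the members is read from these counts. The cause of each move was not tested.

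Few females (2 or 3 a group, 1 in RiboMinus MII controls) limit the tests, and a fit on the groups compared alone has the fewest residual degrees of freedom. Oocytes of one female are not independent, so fits with each oocyte as a replicate give p-values that are too small. Depth limits Sohlh1, and Figla at MII in polyA controls, where single oocytes held 4 to 28 counts.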
